A study of Mus musculus with 6 samples.

Results

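The constitutive proteasome subunits were taken as the protein-coding genes of the deposited table whose symbols begin with Psma, Psmb, Psmc or Psmd followed by a digit, without the inducible subunits Psmb8, Psmb9 and Psmb10. This rule found 37 of 23302 genes. It took 16 genes of the core particle (8 of the alpha rings and 8 of the beta rings) and 17 of the regulatory particle (6 ATPases of its base, 3 other base subunits and 8 lid subunits). It also took 3 chaperones that assemble the base (Psmd5, Psmd9 and Psmd10) and Psmc3ip, which encodes a meiotic recombination factor, is no subunit and was kept apart. The RNA came from macrophages of malignant pleural effusions (MPE) of C57BL/6 mice. In the paper's main model these were collected 10 days after MC38 colon adenocarcinoma cells had been injected into the pleural cavity. Its methods also name MC38-GFP and Lewis lung cells. Neither the paper nor the library labels state which cells were used for the sequenced macrophages. Mononuclear cells were enriched on a density gradient and macrophages with beads against F4/80, a surface protein of mouse macrophages. The paper's methods state that isolated macrophages were cultured for further use, without saying if this preceded the RNA extraction. One group was WT and the other IL-10−/−, with 3 libraries each, and the study's supplement gives an age of 6 to 8 weeks for the mice. WT and IL-10−/− mice came from different suppliers, so supplier and genotype cannot be told apart. The labels give each library a code after the word mice, without stating if it is a single mouse or a pool. Every p-value therefore rests on the spread among the 6 libraries only.

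The proteasome breaks down proteins that carry ubiquitin chains. Its core particle is a barrel of stacked rings, in which the outer alpha rings guard the entrance and the inner beta rings hold the catalytic sites. The regulatory particle caps the barrel: its lid and base bind and remove ubiquitin, and the ATPases of the base unfold the substrate and thread it into the core. In macrophages and other immune cells, interferon replaces the catalytic beta subunits Psmb5, Psmb6 and Psmb7 by the inducible subunits Psmb8, Psmb9 and Psmb10, which changes the peptides available for MHC class I.

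The libraries were checked before the members were compared. FPKM (fragments per length of transcript, scaled to the mapped fragments) summed to between 885310 and 1125015 per library, and the read depth is unknown because FPKM keeps no totals. All 7 macrophage markers were present, with a summed level of 5181 to 7063 FPKM in the WT libraries and 8487 to 11261 FPKM in the libraries labelled IL-10−/−. Without Lyz2, the lysozyme gene, which made up most of this sum, the other 6 summed to 1568 to 1856 and 1773 to 2009 FPKM and overlapped. Neutrophil markers (8 genes) summed to 1621 to 2274 and 387 to 707 FPKM. Most of this sum was S100a8, with means of 1384 and 365 FPKM, and 1 of the 8 (Camp) had a fold change above 0. T cell markers (9 genes) summed to 82.0 to 135 and 112 to 251 FPKM, and B cell markers (6 genes) to 43.2 to 49.8 and 13.2 to 33.7 FPKM. None of these markers was at 0 in every library, and epithelial markers (6 genes) summed to at most 11.5 FPKM. Il10, the targeted gene, was at 6.43, 33.3 and 7.33 FPKM in WT and at 59.2, 62.0 and 42.4 FPKM in IL-10−/−, so its transcript was not lower where the label says IL-10−/−, and groups are named by their labels. In bulk RNA, fewer cells of a type and less RNA per cell cannot be told apart, and the part of other cells in the values below was not tested.

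A gene was tested if 3 or more of the 6 libraries held 1 FPKM or more, which 11838 genes did. The test was limma's, on log2(FPKM + 1), and p was adjusted by Benjamini and Hochberg's method over all of them. Of the 37 members, 35 passed. The exceptions were Psma8, the alpha subunit of the testis proteasome, and Psmb11, the beta subunit of the thymic cortex. Psma8 was at 0.416, 0.530 and 0.350 FPKM in WT and at 0.914, 0.486 and 0.506 FPKM in IL-10−/−. Psmb11 was at 0, 0.010 and 0.0501 FPKM in WT and was listed at 0 in all IL-10−/− libraries. Both subunits of specialised tissues were thus near 0 in both groups.

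No constitutive proteasome gene passed the test in either direction. At an adjusted p under 0.05 from limma, 0 of 35 members were higher and 0 lower in IL-10−/−, while 1.09% of all tested genes were called (0.608% higher and 0.482% lower). At an unadjusted p under 0.05 there were also 0 members, against 10.8% of all tested genes. Log2 fold changes of the members lay between −0.24 and 0.33 with a median of −0.02, and the median over all tested genes was −0.0025. Of the 35, 16 were above 0 and 19 below, but 26 were above 0 when FPKM were rescaled to an equal sum per library, which moved the median of all tested genes to 0.07. The smallest adjusted p of a member was 0.61 (Psma3, limma).

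A p that misses the threshold does not show equal levels, so the intervals were read as well. For all 35 members the 95% interval of the fold change on the log2(FPKM + 1) scale stayed within 2-fold, from a lowest bound of 0.673-fold (Psmc1) to a highest bound of 1.84-fold (Psmc3ip). For 29 of 35 it stayed within 1.5-fold, among them 10 of 14 tested core genes and 16 of 17 regulatory genes. Each interval is for a single gene without adjustment, and differences inside it remain compatible with the 6 libraries.

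**Figure D1:**
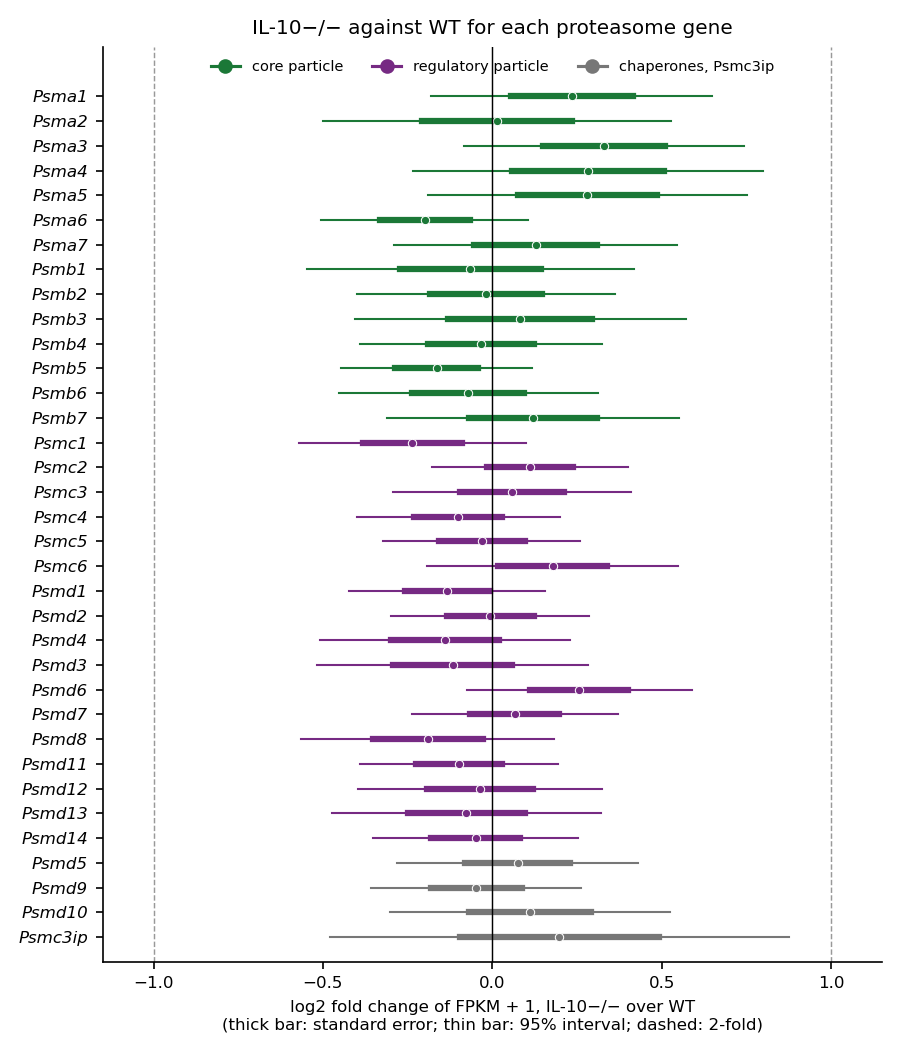
Log2 fold change of FPKM + 1 (IL-10−/− over WT, horizontal axis) for each of the 35 tested members, grouped by particle, with thick bars for the standard error and thin bars for the 95% interval from limma. Every interval crosses 0 and stays inside the dashed lines at 2-fold.

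The groups did not overlap for 3 of 35 members, all lower in IL-10−/−: Psma6, Psmb5 and Psmd1. Over all tested genes 15.4% did not overlap, 7.8% with IL-10−/− higher and 7.59% with IL-10−/− lower. A count of 3 of 35 is near the share of all tested genes with IL-10−/− lower, so it does not set these genes apart. The 300 bases around the transcription starts of these 3 genes (250 before and 50 after, RefSeq, GRCm38.p6) are shown as a description only. Capitals mark matches to 4 motifs searched on both strands: TGACNNNGC (antioxidant response element, bound by NFE2 family factors such as Nfe2l1, a known activator of proteasome genes), CCGGAAG (ETS factors), CCAAT and GGGCGG (GC box). The Psmb5 window is chr14:54617946-54618245 on the minus strand, the Psmd1 window is chr1:86064369-86064668 on the plus strand, and the second of 2 Psma6 windows is chr12:55398575-55398874 on the plus strand.
Psmb5: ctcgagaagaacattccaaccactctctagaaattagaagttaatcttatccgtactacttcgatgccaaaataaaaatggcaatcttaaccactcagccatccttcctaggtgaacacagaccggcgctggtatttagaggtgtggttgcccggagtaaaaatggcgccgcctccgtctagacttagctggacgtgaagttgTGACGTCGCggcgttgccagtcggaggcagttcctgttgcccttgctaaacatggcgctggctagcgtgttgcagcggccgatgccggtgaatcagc
Psmd1: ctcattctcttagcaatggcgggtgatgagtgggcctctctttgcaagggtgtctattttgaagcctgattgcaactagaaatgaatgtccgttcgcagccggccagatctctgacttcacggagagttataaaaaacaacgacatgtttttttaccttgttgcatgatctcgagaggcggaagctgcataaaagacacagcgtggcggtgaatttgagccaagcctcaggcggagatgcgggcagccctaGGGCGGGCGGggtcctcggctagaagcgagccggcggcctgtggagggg
Psma6: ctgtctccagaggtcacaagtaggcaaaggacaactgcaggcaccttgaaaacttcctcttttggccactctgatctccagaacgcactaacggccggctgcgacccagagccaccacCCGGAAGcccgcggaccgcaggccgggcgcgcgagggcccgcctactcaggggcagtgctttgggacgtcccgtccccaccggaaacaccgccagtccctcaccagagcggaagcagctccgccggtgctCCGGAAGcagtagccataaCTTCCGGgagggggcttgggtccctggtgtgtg
The Psmb5 window held 1 TGACNNNGC, the Psmd1 window 2 overlapping GGGCGG and the Psma6 window 3 CCGGAAG. The first Psma6 window held CCAAT only. No motif was shared by these windows.

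RefSeq promoter windows were found for 29 of the 35 tested members. A member was counted if any of its windows held the motif, while the background is the share of single windows, not limited to tested genes. CCGGAAG occurred in 11 of 29, against 8.86% of the 32851 windows searched. It lay in 9 of 14 regulatory genes but in 1 of 11 core genes, which was Psma6, and also in Psmc3ip, which is no subunit. For the regulatory genes 3 examples are shown on the strand of the gene with the motif in capitals, which in Psmc1 reads on the opposite strand as CTTCCGG.
Psmd13: gcggtgCCGGAAGtgagcg
Psmd6: acgcgaCCGGAAGtcagac
Psmc1: gatgcaCTTCCGGcggtgg
The first base of these matches lay at −6, −45 and −28 from the start. TGACNNNGC occurred in 5 of 29, against 12.4% of the windows searched. Among these were 2 catalytic subunits and the chaperone Psmd9, again with the motif in capitals.
Psmb5: aagttgTGACGTCGCggcgtt
Psmb6: agagagTGACGGAGCgcttta
Psmd9: agccggTGACCCCGCccactt
These matches began at −47, −9 and −31. The other 2 were in the regulatory genes Psmc6 and Psmd12 and began farther from the start, at −227 and −247. CCAAT occurred in 12 of 29 (37.4% of the windows searched) and GGGCGG in 18 of 29 (35.7% of the windows searched). A match is a description of the sequence and not a shown binding site.

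Core genes had higher FPKM than regulatory genes. FPKM is a level per length, but a length bias shared by all libraries would stay in a comparison between genes and was not tested. Core transcripts were shorter, with a median of 1162.5 against 1636 bases. The median over the 14 tested core genes was 224 FPKM and that over the 17 regulatory genes 85.8 FPKM (each gene averaged over the 6 libraries), a ratio of 2.62. All 14 core genes lay above the regulatory median, and 7 lay above every regulatory gene. Psma7, an alpha subunit, was the highest of all at 457 FPKM and Psma5 the lowest of the core at 121 FPKM. Psmd8, a lid subunit, was the highest regulatory gene at 230 FPKM, and Psmd11, also of the lid, the lowest at 41.7 FPKM. The chaperones lay below every tested subunit, at 7.77 (Psmd5) to 21.7 FPKM (Psmd10), and Psmc3ip was at 3.05 FPKM. In the order of levels, 31 of 34 neighbouring genes overlapped in their range over the libraries, so ranges alone do not separate most ranks. Ranges ignore that both genes were measured in the same libraries, and the order within each library was not compared for all neighbours. Psma7, for example, lay above Psmb3, the next gene, in each of the 6 libraries.

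**Figure D2:**
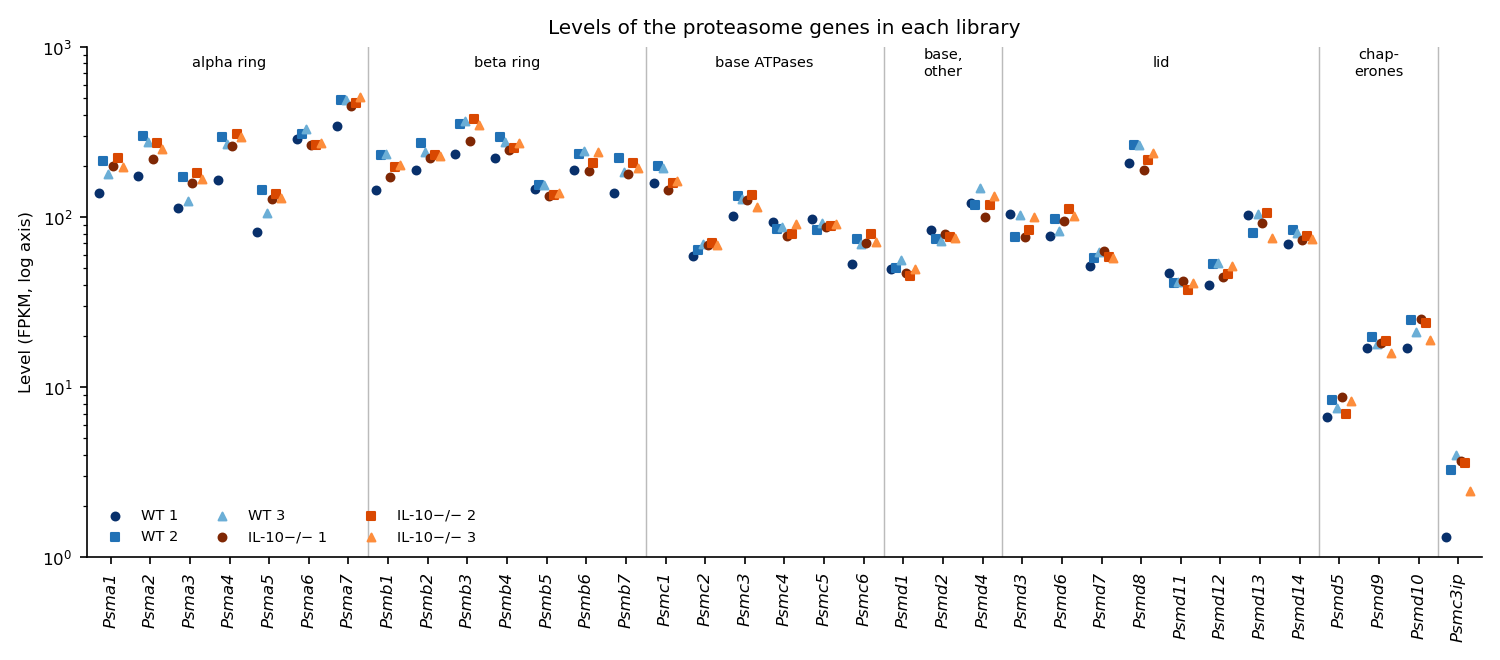
Level (FPKM, log axis) of each tested member in each of the 6 libraries, ordered by role. Core genes (alpha and beta rings) have a median of 224 FPKM, regulatory genes of 85.8 FPKM and the chaperones lie below both, while WT replicate 1 (dark blue circles) is the lowest library in 11 of 14 core genes.

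The ratio of the core median to the regulatory median was computed in each library. It was 2.02, 3.12 and 2.95 in WT and 2.69, 2.85 and 3.12 in IL-10−/−. The groups overlapped, and WT replicate 1 lay below the other 5 libraries. The core median was 170 FPKM in this library and 209 to 253 FPKM in the others. The regulatory median differed less, from 75.6 to 84.2 FPKM, and was highest in the same library. On the log2(FPKM + 1) scale the core median minus the regulatory median was 1.39 ± 0.34 in WT and 1.51 ± 0.11 in IL-10−/− (SD, n = 3 each).

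WT replicate 1 therefore stood apart from the other libraries in the core genes, and medians of each role are given with and without it. It was the lowest library for 11 of 14 core genes and the highest for none. The exceptions were Psma6, Psmb5 and Psmb6. Among regulatory genes it was the lowest for 7 of 17 and the highest for 5 (Psmc4, Psmc5, Psmd2, Psmd3 and Psmd11). The median deviation of the core genes from their own mean over the 6 libraries, on the log2 scale, was −0.41 in WT replicate 1, 0.18 and 0.10 in the other WT libraries and −0.06, 0.10 and 0.06 in IL-10−/−. The same for the regulatory genes was −0.09, −0.01 and 0.08 in WT and −0.04, −0.02 and 0.02 in IL-10−/−.

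**Figure D3:**
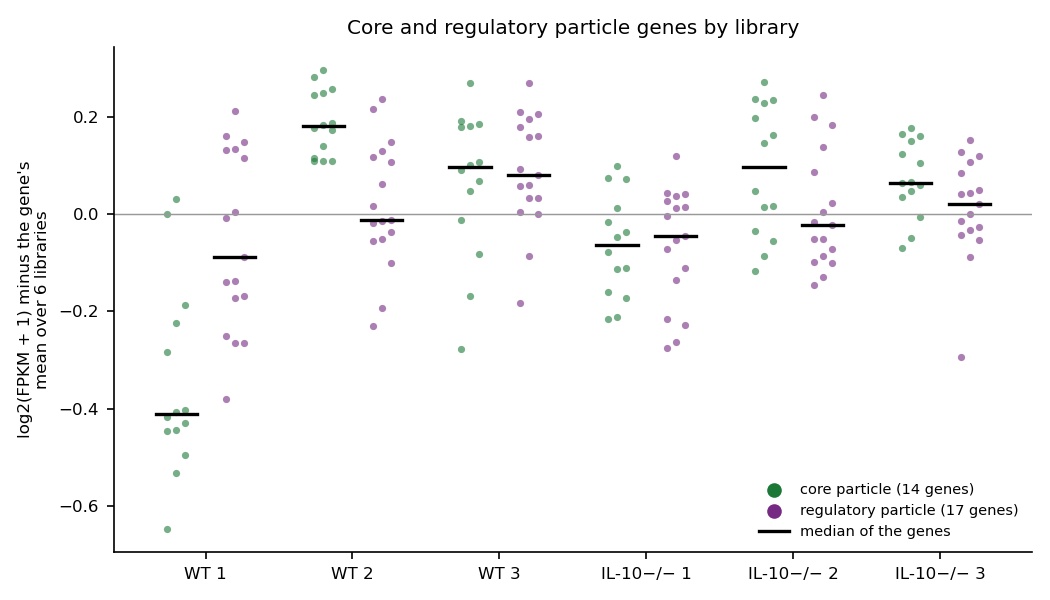
Deviation of each gene's log2(FPKM + 1) from its mean over the 6 libraries (vertical axis), for 14 core and 17 regulatory genes in each library, with black lines for the medians. The core median is −0.41 in WT replicate 1 and between −0.06 and 0.18 elsewhere, while the regulatory medians lie between −0.09 and 0.08.

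Measures of the library as a whole were set beside this. In WT replicate 1 short transcripts were low over all tested genes: the median deviation was −0.21 for transcripts under 700 bases and 0.12 for those of 4500 bases or more. IL-10−/− replicate 1 ran the same way, from −0.17 to 0.03. WT replicates 2 and 3 ran the other way, from 0.19 to −0.05 and from 0.25 to −0.09. The change was smaller in IL-10−/− replicates 2 and 3, from −0.07 to −0.04 and from 0.08 to 0.01. Core genes had a median transcript length of 1162.5 bases and regulatory genes of 1636 bases. In the bin from 1000 to 1500 bases, which held members of both particles, the 6 core genes deviated by −0.43 in WT replicate 1, the 4 regulatory genes by 0.05 and all genes of the bin by −0.12. In the bin from 700 to 1000 bases the 5 core genes deviated by −0.28 and all genes by −0.21, which is closer. With a smooth trend over length removed from each library, the median log2 fold change of the core genes was 0.08 and that of the regulatory genes −0.04. Markers of proliferating cells (10 genes) summed to 148 FPKM in WT replicate 1, 282 and 272 FPKM in WT replicates 2 and 3, and 317, 277 and 197 FPKM in IL-10−/−. Pcna was the largest part of each sum, at 93.6, 171 and 159 FPKM in WT and at 158, 151 and 136 FPKM in IL-10−/−. Of the other markers, Mki67, Ccnb1 and Mcm5 were lower in IL-10−/− replicate 3 than in WT replicate 1, and the rest were higher. The part of proliferating cells in the low core levels of WT replicate 1 was not tested.

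**Figure D4:**
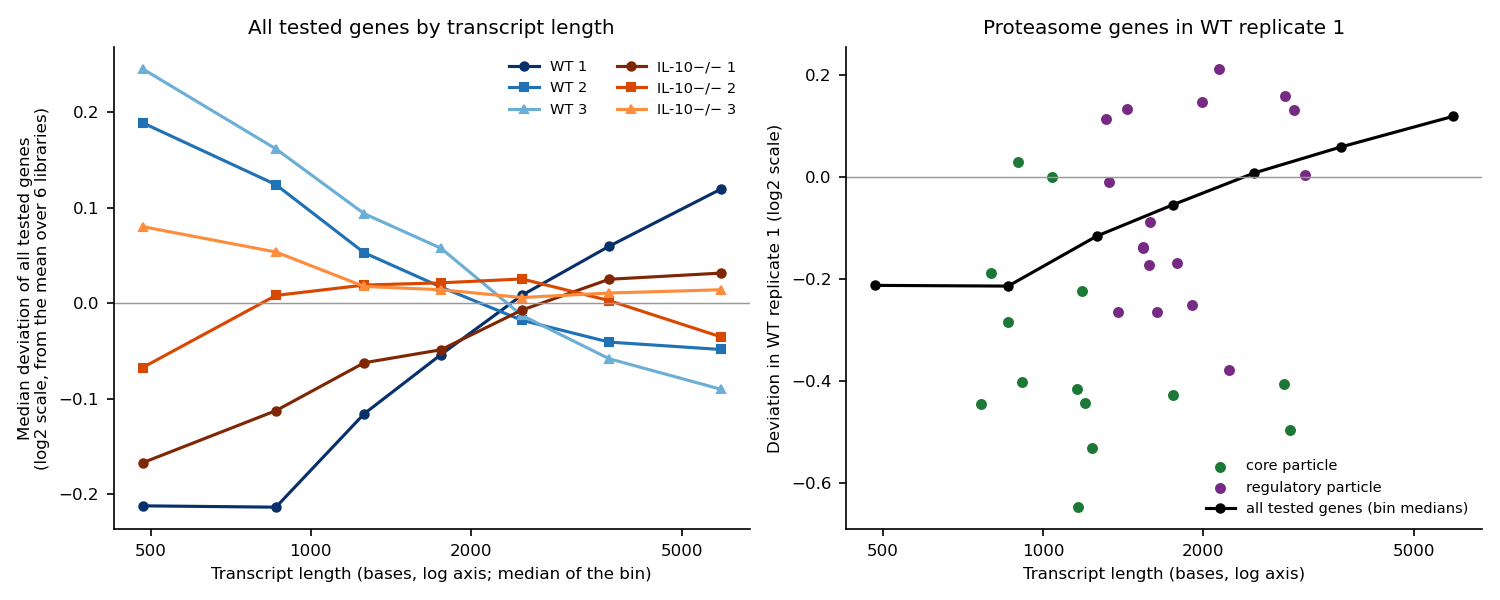
Left, median deviation of all tested genes from their mean over the 6 libraries (log2 scale) against transcript length (bases, log axis) in 7 bins, with a line per library. Right, the same deviation of each core and regulatory gene in WT replicate 1 over the line of all genes, in which most core genes lie below the line and the regulatory genes on both sides of it.

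Between the particles, the fold changes of IL-10−/− over WT were close. The median log2 fold change was 0.05 for the core genes (8 above 0 and 6 below) and −0.05 for the regulatory genes (5 above and 12 below), a difference of 0.10. Without WT replicate 1 the core median was −0.14 and the regulatory median −0.04, so the order of the particles turned. Without this library 9 of all 35 members were above 0 and 26 below, 0 were called, 1 had an unadjusted p under 0.05 and the smallest adjusted p from limma was 0.27. The core median was also below 0 without IL-10−/− replicate 2 (−0.018) and with limma's array weights (−0.050), so its sign was not stable. The regulatory median was 0.035 when FPKM were rescaled to an equal sum per library, and the core median was then 0.13.

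The alpha rings form the gate of the core particle. Their tested genes had a median log2 fold change of 0.23, with 6 of 7 above 0, and without WT replicate 1 the median was 0.03 with 4 of 7 above 0. Psma3 was at 114, 172 and 124 FPKM in WT and at 159, 182 and 168 FPKM in IL-10−/−. WT replicate 2 lay among the IL-10−/− libraries and the other WT libraries below them, and the log2 fold change was 0.33 (standard error 0.18, adjusted p = 0.61 from limma). Psma6 was at 287, 309 and 328 FPKM in WT and at 265, 265 and 273 FPKM in IL-10−/−. It was the only alpha gene with a fold change below 0 and its groups did not overlap, and its log2 fold change was −0.20 (standard error 0.13, adjusted p = 0.70 from limma). Psma1 (178 and 206 FPKM as WT and IL-10−/− means), Psma4 (243 and 288 FPKM) and Psma5 (111 and 131 FPKM) had log2 fold changes of 0.23, 0.28 and 0.28, each with its lowest value in WT replicate 1. Without that library they were 0.072, 0.030 and 0.084, and that of Psma3 was 0.21. Psma2 (251 and 248 FPKM) and Psma7 (439 and 475 FPKM) differed less.

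The beta rings carry the catalytic sites. Their 7 tested genes had a median log2 fold change of −0.03, with 2 above 0 (0.05 and 6 above 0 with FPKM rescaled to an equal sum), and without WT replicate 1 of −0.17, with 0 above 0. Psmb5, the constitutive chymotrypsin-like subunit, was at 146, 154 and 154 FPKM in WT and at 132, 135 and 138 FPKM in IL-10−/−. The groups did not overlap and each varied little (151 ± 4.66 against 135 ± 2.95 FPKM, SD, n = 3 each), and the log2 fold change was −0.16 (standard error 0.12, adjusted p = 0.74 from limma). Psmb6, the caspase-like subunit, was at 190, 234 and 245 FPKM in WT and at 186, 208 and 242 FPKM in IL-10−/−, and the log2 fold change was −0.07 (standard error 0.17, adjusted p = 0.94 from limma; 0.013 with the rescaled FPKM). Its groups overlapped over nearly their whole range. Psmb7, the trypsin-like subunit, was at 139, 221 and 185 FPKM in WT and at 180, 208 and 195 FPKM in IL-10−/−, so that all IL-10−/− libraries lay within the WT range (log2 fold change 0.12, standard error 0.19, adjusted p = 0.90 from limma; −0.058 without WT replicate 1). The structural subunits Psmb1 (204 and 191 FPKM), Psmb2 (234 and 228 FPKM), Psmb3 (319 and 334 FPKM) and Psmb4 (266 and 258 FPKM) overlapped between WT and IL-10−/−.

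The inducible counterparts stood higher relative to the constitutive catalytic subunits in every IL-10−/− library than in every WT library. The log2 ratio of Psmb8 to Psmb5 was 1.504, 1.55 and 1.58 in WT and 2.06, 2.08 and 1.98 in IL-10−/−. As means this was 1.55 ± 0.04 and 2.04 ± 0.06 (SD, n = 3 each), a difference of 0.50, or 2.85 to 3.01 against 3.96 to 4.26 on the linear scale. The log2 ratio of Psmb9 to Psmb6 was −0.62, −0.86 and −0.65 in WT and 0.03, −0.03 and −0.43 in IL-10−/−, a difference of 0.57. That of Psmb10 to Psmb7 was 0.45, −0.05 and 0.36 in WT and 0.63, 0.78 and 0.66 in IL-10−/−, a difference of 0.44 (0.29 without WT replicate 2). The groups were separated for all 3 ratios, and the exact two-sided permutation test gave p = 0.1 for each (adjusted 0.1 over the 3). This is the smallest p that 3 against 3 allow, so the design could not reach 0.05. Of all single genes tested, 15.4% had separated groups, and no such share was computed for ratios. The 3 ratios come from the same 6 libraries and are not independent results.

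**Figure D5:**
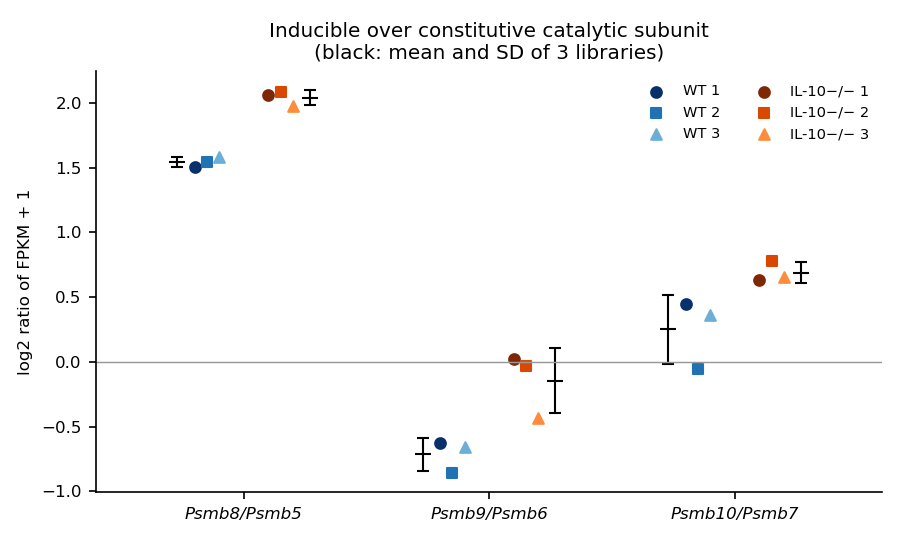
Log2 ratio of FPKM + 1 of each inducible catalytic subunit to its constitutive counterpart (vertical axis) in each library, with the mean and SD of 3 libraries in black. The groups do not overlap for any of the 3 pairs, and the differences are 0.50, 0.57 and 0.44. Of all single genes tested, 15.4% did not overlap.

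The inducible subunits alone had these levels. Psmb8 had means of 444 and 559 FPKM in WT and IL-10−/−, Psmb9 of 136 and 191 FPKM and Psmb10 of 214 and 315 FPKM. Their log2 fold changes were 0.33, 0.50 and 0.56, and none passed the test (adjusted p = 0.44, 0.22 and 0.20 from limma). The log2 fold changes of the denominators were −0.16 for Psmb5, −0.07 for Psmb6 and 0.12 for Psmb7.

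The base ATPases form the ring that unfolds substrates. Their 6 genes had a median log2 fold change of 0.01, with 3 on either side of 0 (−0.020 without WT replicate 1 and 0.097 with FPKM rescaled to an equal sum). Psmc1 was at 159, 199 and 195 FPKM in WT and at 145, 159 and 162 FPKM in IL-10−/−. Its WT replicate 1 lay among the IL-10−/− libraries and the other WT libraries above them, and it had the lowest log2 fold change of all members (−0.24, standard error 0.15, adjusted p = 0.67 from limma, and −0.34 without WT replicate 1). Psmc6 was at 53.0, 74.6 and 69.4 FPKM in WT and at 70.5, 79.5 and 71.3 FPKM in IL-10−/−, with WT replicate 1 below all others and the remaining libraries overlapping (0.18, standard error 0.16, adjusted p = 0.80 from limma; 0.034 without that library). Psmc2 (64.0 and 69.0 FPKM), Psmc3 (120 and 125 FPKM), Psmc4 (88.8 and 82.8 FPKM) and Psmc5 (91.2 and 89.0 FPKM) had smaller fold changes.

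The other base subunits are scaffolds and ubiquitin receptors. Their 3 genes had a median log2 fold change of −0.13 (−0.16 without WT replicate 1). Psmd1, a large scaffold, was at 49.5, 49.9 and 56.0 FPKM in WT and at 46.9, 45.1 and 49.4 FPKM in IL-10−/−. The groups did not overlap, but the highest IL-10−/− library lay just below the lowest WT library (−0.13, standard error 0.13, adjusted p = 0.82 from limma). Psmd4, a ubiquitin receptor, was at 121, 118 and 147 FPKM in WT and at 101, 118 and 133 FPKM in IL-10−/−, with overlapping groups (−0.14, standard error 0.16, adjusted p = 0.85 from limma). Psmd2, the second scaffold, had nearly equal means of 77.1 and 76.7 FPKM.

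The lid holds the deubiquitinase and its supporting subunits. Its 8 genes had a median log2 fold change of −0.06, with 2 above 0 (−0.042 without WT replicate 1, and 0.02 with 5 above 0 when FPKM were rescaled to an equal sum). Psmd14, the deubiquitinase that removes the ubiquitin chain before degradation, was at 69.6, 83.9 and 81.0 FPKM in WT and at 73.8, 77.8 and 74.4 FPKM in IL-10−/−. All its IL-10−/− libraries lay within the WT range (−0.05, standard error 0.13, adjusted p = 0.95 from limma, 0.035 with the rescaled FPKM and −0.13 without WT replicate 1). Psmd6 was at 77.7, 97.6 and 82.3 FPKM in WT and at 94.4, 111 and 102 FPKM in IL-10−/−, the highest log2 fold change of the regulatory particle (0.26, standard error 0.14, adjusted p = 0.63 from limma). WT replicate 2 lay above the lowest IL-10−/− library. Psmd8 was at 208, 266 and 264 FPKM in WT and at 190, 217 and 237 FPKM in IL-10−/−, with WT replicate 1 among the IL-10−/− libraries (−0.19, standard error 0.16, adjusted p = 0.79 from limma, and −0.31 without that library). The means of Psmd3 (94.5 and 86.7 FPKM), Psmd7 (57.1 and 59.6 FPKM), Psmd11 (43.1 and 40.2 FPKM), Psmd12 (48.9 and 47.3 FPKM) and Psmd13 (95.9 and 91.2 FPKM) were closer, and their groups overlapped. Reads of Psmd13 may include those of Gm15542, a processed pseudogene listed within its span at a mean of 58.3 FPKM.

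The base chaperones are not part of the finished proteasome. Their 3 genes had a median log2 fold change of 0.07 (−0.025 without WT replicate 1). Psmd5 was at 6.64, 8.45 and 7.54 FPKM in WT and at 8.73, 6.98 and 8.28 FPKM in IL-10−/−, with overlapping groups (0.07, standard error 0.15, adjusted p = 0.93 from limma, and −0.0032 without WT replicate 1). Psmd10, known as gankyrin and often abundant in tumours, was at 16.95, 24.8 and 20.98 FPKM in WT and at 25.1, 23.7 and 18.9 FPKM in IL-10−/−, also overlapping (0.11, standard error 0.18, adjusted p = 0.91 from limma, and −0.025 without WT replicate 1). Psmd9 had means of 18.2 and 17.6 FPKM. Psmc3ip, the gene that is no subunit, had means of 2.86 and 3.24 FPKM and the widest interval of all members. Its span overlaps Mlx, which was at a mean of 25.5 FPKM.

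The other genes of the pathway were counted from 5 lists of 39 genes, all of which were tested. At an adjusted p under 0.05 from limma 0 of 39 were called in either direction, and 4 had an unadjusted p under 0.05, against 10.8% of all tested genes, a share near that background. Of the 4, 3 were the inducible subunits, and the other was Zfand5, which encodes a zinc finger protein that binds the proteasome and stimulates it. Zfand5 was at 119, 149 and 133 FPKM in WT and at 90.1, 80.6 and 95.01 FPKM in IL-10−/−. All its IL-10−/− libraries lay below all WT libraries, and the log2 fold change was −0.59 (standard error 0.14, adjusted p = 0.13 from limma). Over the lists 21 of 39 fold changes were above 0, with a median of 0.03. The groups were separated for 9 of 39, in either direction, against 15.4% of all tested genes, and 3 of the 9 were the inducible subunits.

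Of the activators that can take the place of the regulatory particle, 3 were named by the rule. Psme2, a subunit of the interferon-inducible activator ring, had means of 382 and 477 FPKM in WT and IL-10−/− with separated groups (log2 fold change 0.33, adjusted p = 0.53 from limma), and its partner Psme1 had 430 and 475 FPKM with overlapping groups (0.15, adjusted p = 0.84). Psme4, an activator of another type, had 14.9 and 17.99 FPKM, also with separated groups (0.25, adjusted p = 0.61 from limma). Among 5 assembly factors, Pomp, which guides the maturation of the beta rings, was at 433, 594 and 403 FPKM in WT and at 640, 607 and 595 FPKM in IL-10−/−. Its groups touched without overlapping (0.38, adjusted p = 0.52 from limma). Psmg2, a chaperone of the alpha ring, had 11.8 and 13.8 FPKM (0.24, adjusted p = 0.81).

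Among factors that associate with the proteasome, the ubiquitin ligase Ube3c had means of 4.80 and 6.34 FPKM in WT and IL-10−/−. Its groups were separated (0.34, adjusted p = 0.50 from limma). The ubiquitin gene Ubb had 769.6 and 682.5 FPKM (−0.17, adjusted p = 0.80). Nfe2l1, the transcription factor that raises proteasome genes when proteasome activity is low, was at 29.4, 27.9 and 27.4 FPKM in WT and at 29.7, 29.9 and 27.5 FPKM in IL-10−/−. Its groups overlapped and its log2 fold change was 0.04 (adjusted p = 0.96 from limma).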

How the data were processed

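Poly(A) RNA of MPE macrophages (3 WT and 3 IL-10−/− libraries, grouped by the genotype in their labels) was sequenced as paired ends. The authors deposited 1 table of FPKM per gene and library. The submitters' processing notes name GRCm38. Aligner, counting tool and use of strand were not given in the sources used here, so overlapping genes (10 members overlap another listed gene), antisense genes and near-identical copies are uncertain. The table also holds the authors' fold changes, p-values, q-values and marks, which were not used. Depth is unknown: FPKM keeps no totals, values go down to 5e-307 and are not whole-read multiples, and precision is given by the spread between libraries alone.

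Members and lists were chosen with earlier results of these data known. FPKM were tested with limma 3.58.1 (R 4.3.3; linear model of the group, variance trend) as log2(FPKM + 1) in a two-sided test over the 11838 genes that reached 1 FPKM in 3 or more libraries, adjusted by Benjamini and Hochberg's method. Fold changes on this scale understate those of low genes. Ratios were compared by an exact permutation test (scipy 1.17.1). Values by library were given for the 2 members of each role with the smallest p, the catalytic subunits, Psmd4, Psmd14 and members failing the filter. From each pathway list came the 2 genes with the smallest p, the inducible subunits, Psme1, Psme2 and Nfe2l1, and all remaining members were given by group means. A gene that the rule takes is not reported here. Gm15542 and Mlx were named after their values were seen. Lengths and strands came from GENCODE mouse release 21 (longest principal transcript), with 27 of 37 members at the same position as in the deposited table. Promoters came from RefSeq. The code was tested on simulated data. Alternatives were a pseudocount of 0.1, no filter, a filter at 5 FPKM, equal sums, quantile normalization, no variance trend, array weights, protein-coding genes only, a replicate block and each library left out. Removal of the length trend was added after the data were seen.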

Additional observations from a re-analysis of the deposited data

How the results depend on the processing

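Under each of the 16 alternatives 0 members were called, at most 2 had an unadjusted p under 0.05 and the smallest adjusted p of any member was 0.20 (Psmc1, array weights). The median log2 fold change of the core genes lay between −0.14 (without WT replicate 1) and 0.17 (without WT replicate 2) when a library was left out, and that of the regulatory genes between −0.089 (without WT replicate 2) and −0.023. With FPKM rescaled to an equal sum, which moved the median of all genes to 0.07, the regulatory median was 0.035 and the core median 0.13, 26 of 35 members were above 0, Psmb6 turned to 0.013 and Psmd14 to 0.035. With array weights Psmd5 turned to −0.042. With a library left out in turn, 19 of 35 members crossed 0 at least once, 11 of them without WT replicate 1. Of the members given by library, those that did ranged from −0.18 to 0.018 for Psmb6, from −0.058 to 0.27 for Psmb7, from −0.0032 to 0.16 for Psmd5, from −0.025 to 0.24 for Psmd10 and from −0.13 to 0.0037 for Psmd14. The cause was not tested. Over all genes, calls numbered 129, against 32 with no filter, 482 with array weights, 40 to 140 with a library left out and 61 with the replicate block. Libraries of both groups share only a number: the correlations of same-numbered libraries were 0.09, 0.20 and 0.09, each library correlated best with its own number, and with the block 0 members were called. A block cannot move a fold change in this balanced design (core median 0.05). With 3 libraries a group, differences inside the 95% intervals given above remain possible. Low genes such as Psmc3ip carry the most counting error, which cannot be given without read totals.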
